A study of Trichoderma reesei with 12 samples.

Results

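The light response of the parent strain of this series was described across all genes, from 4 of the 12 libraries, namely 2 from cultures in constant light and 2 from cultures in constant darkness. The organism is Trichoderma reesei, a filamentous fungus grown for its cellulases, and the libraries were made from mycelium after 96 h at 28 °C in minimal medium with cellulose. The light group is QM6aΔku80 in light, and the group it is set against is QM6aΔku80 in darkness, so both lack ku80, a gene of non-homologous end joining that is deleted to ease gene targeting. The other 8 libraries come from QM6aΔku80Δsor4, which also lacks the transporter gene sor4, with 4 in light and 4 in darkness. The libraries were chosen by their titles. Titles and treatment labels separate light from darkness, while the treatment protocol text speaks of darkness for every sample; the titles were followed. Whether replicates stand for separate cultures is not stated in the labels, so every p-value refers to the scatter of these libraries alone, and that scatter may be technical.

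As background, fungi such as Trichoderma sense blue light with photoreceptors of the White Collar type, named BLR1 and BLR2 in this species, together with the smaller light-regulatory protein ENV1. Light is known in Trichoderma for its influence on sporulation, on secondary metabolism and on the output of plant cell wall degrading enzymes during growth on cellulose. Of the 10879 rows of the deposited table, 10876 carry an identifier built from Tr, a letter, digits and W or C, with no gene name beside it; the other 3 carry the gene names mat1-1-1, mat1-1-2 and mat1-1-3. None of these identifiers matched the reference table of gene names (0 matches), so no gene of this light pathway, no cellulase and no marker of mycelium or spores was looked at by name, and the labelled cell type was not checked.

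Total counts were 10112368 and 7844524 in the light libraries, against 10104744 and 11337250 in the dark libraries. A count above 0 was found for 9299 and 8968 of the 10879 rows in light, against 9667 and 9771 in darkness. Thinned to the depth of the smallest library, 7844524 counts, the expected numbers of detected rows were 9225 and 8968 in light, against 9584 and 9648 in darkness, so both light libraries stayed below both dark ones at equal depth. In mycelium, as in any bulk sample, fewer cells that express a gene and less RNA of it per cell cannot be told apart.

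Light went with a change in 3810 of 8939 tested genes (42.6%). Of these, 1772 rose (19.8%) and 2038 fell (22.8%) at an adjusted p under 0.05 in edgeR's quasi-likelihood test, in a fit of all 12 libraries. The genes that rose together held 35.5% ± 1.45 of all counts in light and 14.3% ± 0.123 in darkness (SD, n = 2 each). Those that fell held 15.5% ± 0.232 in light and 37.9% ± 1.02 in darkness (SD, n = 2 each). The 5129 genes that did not pass held 49.0% ± 1.68 in light and 47.7% ± 0.897 in darkness, and there the libraries of both conditions overlapped. These classes were cut from the same libraries, so the shares are a description; for a single value, the smallest two-sided p of an exact permutation test with 2 and 2 libraries is 0.333. A fit of only the 4 libraries called 2330 genes (998 that rose and 1332 that fell), of which 2289, or 98.2%, were also called by the fit of 12. Of the 3810 genes called by the fit of 12, only these 2289 were called from the ku80 libraries alone. Both fits use the same 4 libraries for the fold changes, so their overlap is no independent support. Scaling by library size alone, in place of TMM, turned the excess of falls into one of rises, with 2086 that rose and 1790 that fell.

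**Figure D1:**
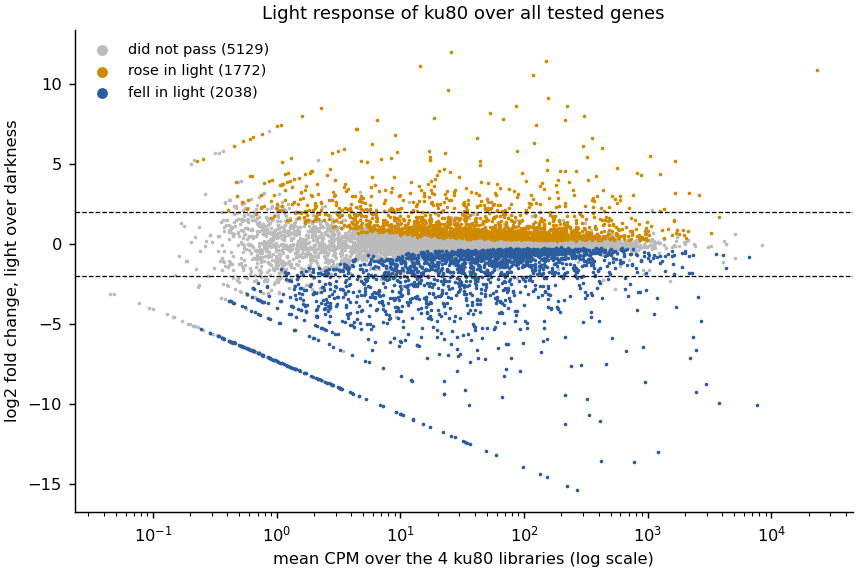
Each point is 1 of the 8939 tested genes, with its mean CPM (the depth-scaled count, with TMM factors) over the 4 ku80 libraries on a log axis and its log2 fold change of light over darkness on the y axis; dashed lines mark 4-fold. The cloud of 2038 genes that fell reaches farther from 0 than that of the 1772 that rose, and the lowest slanted line of points holds genes with 0 counts in both light libraries.

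Rises outnumbered falls among the changes under 2-fold, and falls outnumbered rises among the larger ones. Among the genes that passed the test, 1003 rose and 778 fell by less than 2-fold, whereas 423 rose and 476 fell by 2 to 4-fold. In the class of 4 to 16-fold there were 255 that rose and 428 that fell, and in that of 16-fold or more 91 that rose and 356 that fell. As shares of all tested genes, rises of at least 2-fold, 4-fold and 16-fold made up 8.6%, 3.87% and 1.02%, and falls of those sizes 14.1%, 8.77% and 3.98%. Of the 356 largest falls, 128 had 0 counts in both light libraries, so their fitted fold is no measured value; of the 91 largest rises, 13 had 0 counts in both dark libraries. With a floor of 3 counts over the empty side, 290 falls and 82 rises still reached 16-fold, and the median log2 fold change of the 2 classes was -4.89 and 5.03 in place of the fitted -6.16 and 5.35. A test of whether a change exceeds 4-fold, rather than an estimate beyond 4-fold, called 130 genes that rose and 381 that fell, where the first rule gave 346 and 784.

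The size classes differed in the level that genes held. Genes that rose 16-fold or more had a median of 34.0 CPM in light and 0.348 CPM in darkness, and genes that rose 4 to 16-fold had 26.8 CPM in light and 3.48 CPM in darkness. Genes that fell 16-fold or more had a median of 0.144 CPM in light and 12.2 CPM in darkness, and those that fell 4 to 16-fold had 3.32 CPM in light and 23.7 CPM in darkness. Changes of 16-fold or more thus mostly concerned genes that were under 1 CPM in 1 condition. Small changes were called at high levels, with 82.3 CPM in light and 55.7 CPM in darkness for rises under 2-fold, and 67.4 CPM in light and 102 CPM in darkness for falls under 2-fold. The median SE of the log2 fold change was 0.13 for rises and 0.14 for falls under 2-fold, against 0.70 for rises and 0.94 for falls of 16-fold or more. Each SE is an approximation, the size of the log2 fold change divided by the square root of the F value of edgeR's test. For genes with 0 counts on a side it rests on a fold that was not measured.

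In terms of counts, the 91 genes that rose 16-fold or more gave 8.26% and 6.06% of the light libraries, against 0.0737% and 0.068% of the dark libraries. Most of this came from 1 gene, TrE0391W, and without it the other 90 gave 2.54% and 2.17% in light, against 0.0708% and 0.0661% in darkness. The 356 genes that fell 16-fold or more gave 0.0727% and 0.153% of the light libraries, against 7.94% and 9.30% of the dark libraries. Without their most abundant gene, TrC1166C, they gave 0.0717% and 0.151% in light, against 6.66% and 7.62% in darkness. The dark-high class thus rested on many genes, and the light-high class on 1 gene to a large part. The 255 genes that rose 4 to 16-fold gave 4.46% ± 0.223 in light and 0.634% ± 0.0673 in darkness (SD, n = 2 each), and the 428 that fell 4 to 16-fold gave 0.727% ± 0.131 in light and 4.93% ± 0.155 in darkness.

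**Figure D2:**
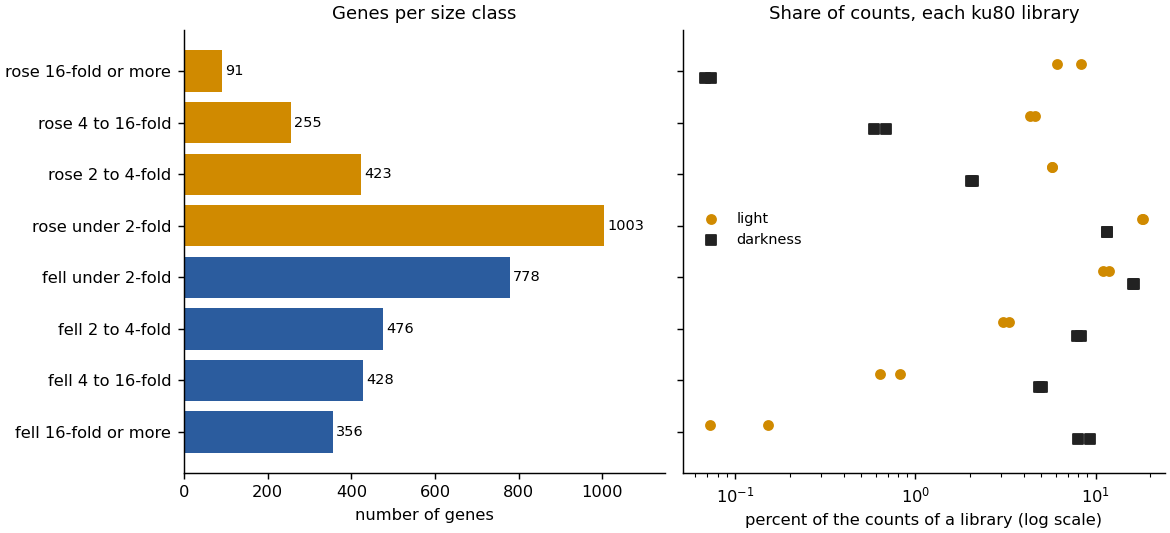
Left, bars give the number of genes in each class of size of change, with rises in orange and falls in blue; right, each point is the percent of the counts of 1 ku80 library held by that class, on a log axis, with circles for light and squares for darkness. Falls of 16-fold or more outnumber rises of that size 356 to 91, and in none of the 8 classes shown do the light and dark points overlap. The classes hold only genes called between these same light and dark libraries, so that separation is a description.

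By the rule for naming, 2 identifiers that rose and 2 that fell were taken for the size of their change in mean CPM among called genes whose light and dark libraries do not overlap; in all, the groups did not overlap for 6187 of the tested genes (69.2%). TrE0391W, a row of only 180 bases, had 578879 and 305344 counts in the light libraries, against 300 and 217 in the dark libraries. Both light libraries stood far above both dark ones, though the light libraries differed among themselves, at 55555 and 38176 CPM. Its mean was 46865 ± 12288 CPM in light and 25.2 ± 8.12 CPM in darkness (SD, n = 2 each). In edgeR's test its log2 change was 10.86, with an SE of 1.75 and an adjusted p of 0.000489. Per kb of length it was the most abundant row in light, with 260364 CPM per kb, and it ranked at 1057 in darkness, with 140 CPM per kb.

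TrB1256C is the opposite case in length, with 29481 bases. It stood at 5923 and 3389 CPM in the light libraries, against 640 and 485 CPM in the dark libraries. The groups were well apart, and light replicate 1 was 1.75-fold above light replicate 2. The log2 change in edgeR's test was 3.05, with an SE of 0.28 and an adjusted p of 7.01e-06. Per kb of length the same gene had only 158 CPM per kb in light and 19.1 CPM per kb in darkness, ranks 859 and 5373, so that its place among the largest changes in CPM goes with its length.

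TrC1166C was the second most abundant row per kb in darkness. Its CPM was 9.40 and 19.1 in the light libraries, against 13370 and 17133 in the dark libraries, where it alone took 1.28% and 1.68% of all counts. Its log2 change was -10.07, with an SE of 0.44 and an adjusted p of 2.51e-08 in edgeR's test. TrG0022C had 76 and 66 counts in light, against 73977 and 82965 counts in darkness. That is 7.29 and 8.25 CPM in light, against 7642 and 7458 CPM in darkness, with a log2 change of -9.92, an SE of 0.39 and an adjusted p of 1.30e-08 in edgeR's test. With 66 to 153 counts of either gene in each light library, both were low in light and not at 0.

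Among the most abundant rows per kb, the turnover was partial. Of the 100 rows with the highest mean CPM per kb in light, 62 were also among the 100 highest in darkness. Of the dark 100, 59 fell in light and 2 rose, and 18 of the 59 fell at least 4-fold and had a median rank of 1887 in light; over all tested genes 22.8% fell, 19.8% rose and 8.77% fell at least 4-fold. Of the light 100, 27 rose and 27 fell, and the 16 that rose at least 4-fold had a median rank of 719 in darkness, beside 3.87% such rises over all tested genes. Rows picked for a high level in darkness are more likely to fall in light, and those picked in light to rise, so these counts are a description. Of the dark 10 highest, 6 fell, 3 of them 16-fold or more, and 4 did not pass. Over all tested genes the levels in light and darkness had a Spearman rho of 0.88, which is across genes of the same libraries and is given as a description.

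The share of counts taken by the leading rows was higher in light for the first row and for the 10 leading rows. For those 10 without the first it was lower in light, and for the 100 leading rows the conditions overlapped. The single most abundant row took 5.72% and 3.89% of the counts in light, against 1.28% and 1.68% in darkness. The 10 leading rows took 10.7% and 8.72% in light, against 7.12% and 7.35% in darkness, and without the first of them 5.72% and 5.41% in light, against 6.36% and 6.28% in darkness. The 100 leading rows took 26.3% and 25.3% in light, against 25.5% and 26.0% in darkness, which overlap. Those holding 50% of the counts numbered 493 and 515 in light, against 502 and 503 in darkness.

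Tested genes were also split by their mean CPM over the 4 libraries, which favours neither condition but grows with gene length. Of the 118 genes at 1000 CPM or more, 22.0% rose and 36.4% fell, beside 19.8% and 22.8% over all genes. In the classes of 100 to 1000 CPM (2136 genes) and 10 to 100 CPM (4393 genes), rises and falls were nearly balanced, at 23.5% and 24.0% in the upper class and 20.9% and 22.1% in the lower one. Of the 1804 genes at 1 to 10 CPM, 16.5% rose and 23.8% fell, and of the 488 genes under 1 CPM 5.74% rose and 17.0% fell. With TMM scaling, falls thus outnumbered rises most clearly at the top and at the bottom of the range. Under library-size scaling, where rises are the more numerous over all genes, the classes were not counted. At the bottom, the filter on low counts, set by group, limits this reading. A gene under 1 CPM on average can pass it through the condition where it is high, or through the sor4 libraries. All 83 falls and 25 of the 28 rises under 1 CPM were of at least 4-fold. How far the filter shaped these shares was not tested. Among changes of at least 4-fold, falls exceeded rises in each class, with 7.63% rises and 11.0% falls at 1000 CPM or more, 3.04% and 4.45% at 100 to 1000 CPM, 2.62% and 6.62% at 10 to 100 CPM, 7.32% and 16.7% at 1 to 10 CPM, and 5.12% and 17.0% under 1 CPM.

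The median absolute log2 fold change was 0.32 at 100 to 1000 CPM and 0.41 at 10 to 100 CPM, against 0.70 at 1000 CPM or more. It was 1.01 at 1 to 10 CPM and 1.64 under 1 CPM, but there the median SE was 0.49 and 1.10, against 0.12 to 0.19 in the upper 3 classes. The estimates under 10 CPM were thus less precise, which limits the changes that can be called there. Under 1 CPM the filter on low counts also favours large changes. When the classes were formed by CPM per kb, 13.8% of the 138 genes at 1000 or more rose and 42.0% fell, while their falls of at least 4-fold were 6.52% and such rises 7.25%. In numbers of genes, 58 fell and 19 rose in this class, with 9 falls and 10 rises of at least 4-fold, whereas the class of 1000 CPM or more had 13 such falls and 9 such rises; the difference was not tested.

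**Figure D3:**
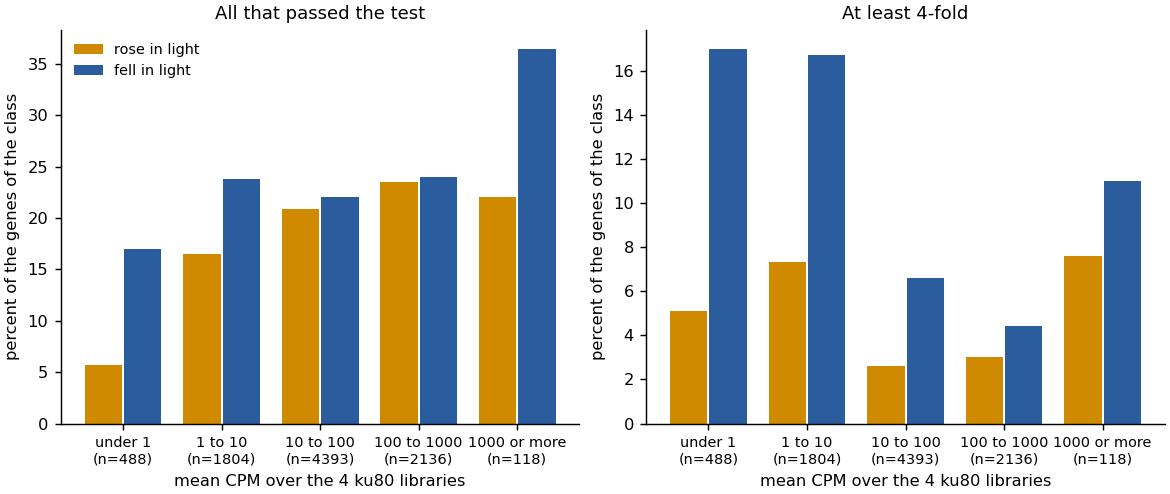
Bars give the percent of genes that rose (orange) or fell (blue) in light within each class of mean CPM over the 4 ku80 libraries, for all changes that passed the test on the left and for those of at least 4-fold on the right; n is the number of tested genes in the class. In percentage points, falls exceed rises most in the class of 1000 CPM or more on the left, at 36.4% fallen and 22.0% risen, and in the 2 classes under 10 CPM on the right. Under 1 CPM, the filter on low counts favours large changes in either direction.

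Genes were counted as switched on if they had at least 10 CPM in both light libraries and under 0.5 CPM in both dark libraries, and as switched off in the reverse case; 0.5 CPM is about 4 to 6 counts in these libraries. Of 10879 rows, 8 were switched on (0.0735%) and 49 were switched off (0.45%), and all 57 passed edgeR's test. The rule already sets a wide gap between the same light and dark libraries, so passing the test adds no support. Among the 6142 rows at 10 CPM or more in both light libraries, a further 9 had their higher dark library between 0.5 and 1 CPM. Among the 6436 rows at that level in both dark libraries, a further 19 had their higher light library in that range. All 57 rows had a length that is a multiple of 3, as did 94.7% of all rows. The median length was 983 bases for those switched on and 1146 bases for those switched off, beside 1491 bases for all genes that rose and 1221 bases for all that fell. For genes that rose or fell 16-fold or more it was 1086 and 1203 bases.

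The 8 genes switched on had mean levels from 10.5 to 300.4 CPM in light, and 2 of them had 0 counts in both dark libraries. Without dark replicate 2 the rule gave 13 genes switched on, and leaving out a library can only keep or raise this count. The 8 came from 6 of the 7 identifier letters, and none stood next to another in the table. The 3 that follow were chosen after their values were seen, and are given without identifiers, as are the later ones. The gene with the highest level in a light library, of 318 bases, had 1408 and 2693 counts in light, against 0 and 3 counts in darkness, or 135 and 337 CPM in light, against 0 and 0.27 CPM in darkness. The ratio of its pooled levels was 1544 (95% exact binomial interval 528 to 7490, for counting error alone). Of the 2 genes with no dark count, one of 1218 bases had 108 and 374 counts in light, at least 181-fold higher in light against a floor of 3 counts over the dark libraries (adjusted p = 0.000118, edgeR). Its light libraries were 4.51-fold apart, with 46.8 CPM in replicate 2 and 10.4 CPM in replicate 1, close to the limit of the rule. The other, of 1389 bases, had 641 and 334 counts in light, at least 367-fold higher by the same floor (adjusted p = 0.00126, edgeR). In all 3 genes both light libraries were far above the dark ones, whatever the distance between the light libraries, as the rule demands.

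The 49 genes switched off had mean levels from 10.9 to 1562 CPM in darkness, with a median of 43.9 CPM, and 10 of them were at 100 CPM or more. Of the 49, 24 had 0 counts in both light libraries. Summed, the 49 had 47 and 28 counts in the light libraries, against 59200 and 71561 counts in the dark libraries, or 0.586% and 0.631% of the dark counts. The most abundant of the 49 in darkness, of 1035 bases and chosen after its values were seen, had 0 and 2 counts in the light libraries, against 14671 and 17901 counts in the dark libraries. Its ratio of pooled levels, darkness over light, was 14418 (95% exact binomial interval 3991 to 119062). The next, of 1257 bases, had 1 and 0 counts in light, against 8986 and 8210 counts in darkness, and a ratio of 15224 (2732 to 601352). Both intervals cover counting error alone. The dark libraries lay close together for most of the 49, with 6 over 2-fold apart.

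**Figure D4:**
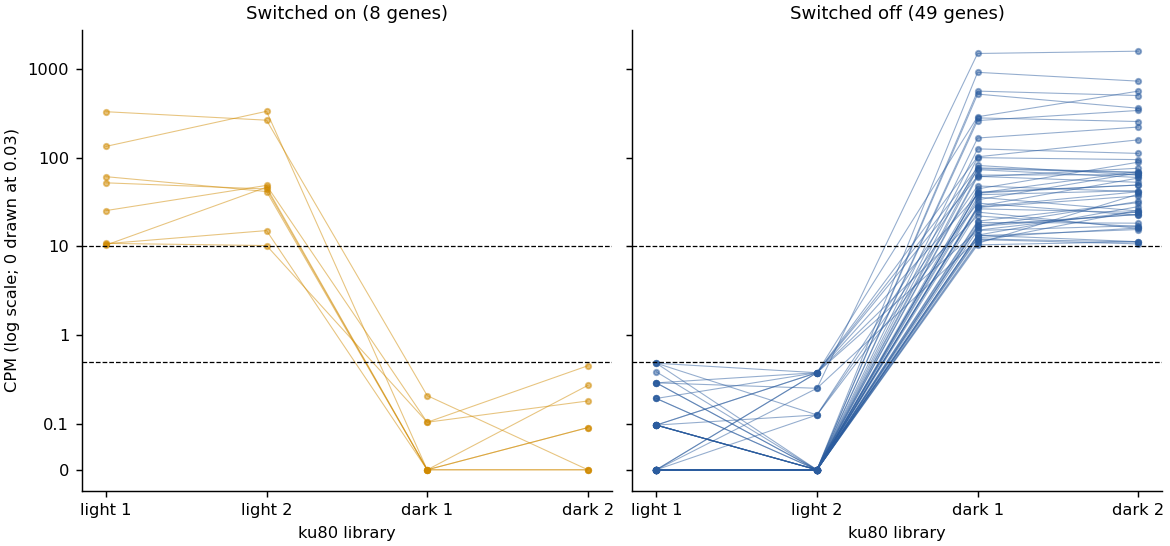
Each line joins the CPM of 1 gene in the 4 ku80 libraries, on a log axis on which 0 is drawn at 0.03; dashed lines mark the 10 and 0.5 CPM of the rule. The 8 genes switched on reach at most 337 CPM in light, while the 49 switched off run up to 1609 CPM in darkness, and most of them lie at 0 in at least 1 light library.

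The table is ordered by identifier, and neighbours in that order often moved alike. Of 74 tested neighbours of the genes switched off, 41 fell in light (55.4%), beside 22.8% over all tested genes. These neighbours include genes that are themselves switched off and so had to fall, as 7 of the 49 stood next to another of the set. Of 13 tested neighbours of the genes switched on, 5 rose (38.5%), beside 19.8% over all. Among the neighbours of all genes that fell at least 4-fold, 46.7% of 1194 fell, and among those of genes that rose at least 4-fold, 36.8% of 557 rose. Here too, neighbours that belong to the same set were not left out, which raises both shares. No label or header states the strand setting of the counting, so reads of overlapping neighbours cannot be told apart, and their part in these shares was not tested.

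Long genes leaned to higher levels in light and short genes to lower ones. The median log2 fold change was -0.17 for 360 genes of at most 300 bases, -0.12 for 2966 genes of over 300 to 1000 bases and 0.00 for 3712 genes of over 1000 to 2000 bases. It was 0.07 for 1768 genes of over 2000 to 5000 bases and 0.15 for 133 genes over 5000 bases. Of the 133 longest, 33.8% rose and 15.0% fell, and of the 2966 genes of over 300 to 1000 bases 14.6% rose and 23.5% fell. Changes of at least 4-fold did not follow this: 2 of the 133 genes over 5000 bases rose so far and 9 fell so far, while of the 360 genes of at most 300 bases 29 rose and 23 fell so far, beside 3.87% such rises and 8.77% such falls over all tested genes.

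The difference between short and long genes was seen in each of the 4 pairs of a light and a dark library, whose medians ran from -0.16 to -0.13 in the shortest class and from 0.13 to 0.15 in the longest one. Between the light libraries the medians of the 5 classes lay between -0.03 and 0.04, and between the dark libraries between -0.02 and 0.02. Length goes with level, so the classes were also taken within levels. Among genes of 100 to 1000 CPM the medians ran from -0.36 in the shortest class through -0.17, -0.04 and 0.06 to 0.16 in the longest one, and among genes of 10 to 100 CPM from -0.26 through -0.08 and 0.06 to 0.11, while the 15 longest genes there had -0.08. Between replicates, the medians at 100 to 1000 CPM reached 0.13 for light 1 over light 2 and 0.07 for dark 1 over dark 2. Both were in the class of over 300 to 1000 bases, whose light and dark median of -0.17 is little above them in size. In the class of over 1000 to 2000 bases the replicate medians were 0.02 in light and 0.04 in darkness, beside -0.04 for light against darkness. In the class of over 2000 to 5000 bases they were -0.01 and 0.003, beside 0.06 for light against darkness. At 10 to 100 CPM the replicate medians lay between -0.05 and 0.05, except for the 15 longest genes, with -0.41 for light 1 over light 2. Between the sor4 light and dark libraries, in the same joint fit, the medians over all levels were -0.03, -0.04, -0.01, 0.03 and 0.06 from the shortest class to the longest, smaller than in ku80 at both ends; the difference was not tested.

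**Figure D5:**
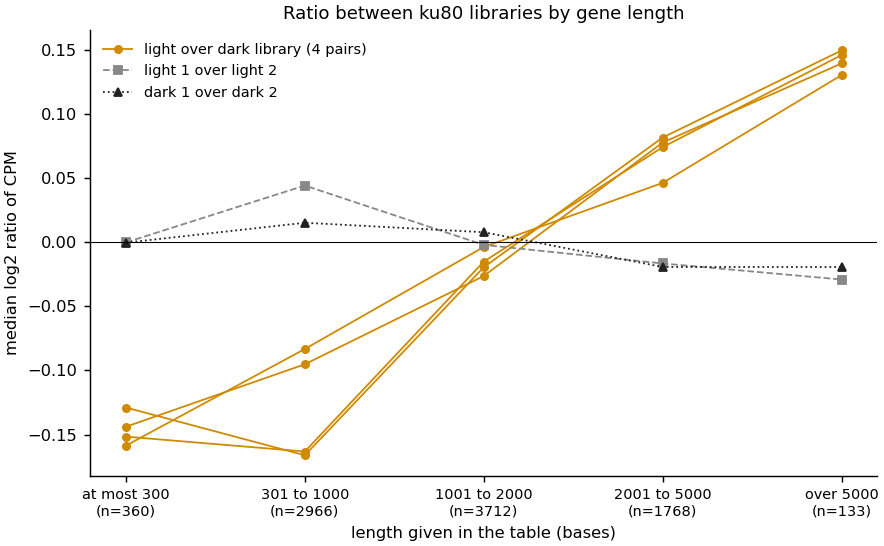
Points give the median log2 ratio of CPM (with 0.5 CPM added) between 2 ku80 libraries for genes of each length class, in orange for the 4 pairs of a light over a dark library, in grey for light 1 over light 2 and in black for dark 1 over dark 2. The 4 light over dark lines lie at -0.16 to -0.13 in the shortest class and at 0.13 to 0.15 in the longest, while both lines between replicates stay between -0.03 and 0.04.

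The 2 light libraries were less alike than the 2 dark ones. Among tested genes with at least 5 CPM in either library of a side, 111 (1.24%) were over 4-fold apart between the light libraries, against 13 (0.145%) between the dark libraries. Of the 111, 100 were higher in light replicate 2 and 11 in light replicate 1. The 100 had a median of 4.89 CPM in light replicate 1 and 33.1 CPM in light replicate 2, against 28.3 CPM in darkness, and of 12.6 CPM in the sor4 light libraries. In these medians, which pool genes that rose, fell or did not pass, light replicate 2 was close to darkness and the sor4 light libraries lay between the light replicates. Of the 111, 68 did not pass the test of light against darkness, 23 rose and 20 fell, so 38.7% were called, close to the 42.6% over all tested genes.

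The most abundant such gene that passed the test, of 885 bases and chosen after its values were seen, had 6.05 and 155 CPM in the light libraries, against 4488 and 4675 CPM in the dark libraries. Light replicate 2 was 25.7-fold above replicate 1, yet both lay far below darkness, with a log2 change of -5.83, an SE of 1.22 and an adjusted p of 0.00258 in edgeR's test. That value was -9.54 without light replicate 2 and -4.87 without light replicate 1. Leaving out light replicate 2 also moved the count of genes switched off to 90, against 63 without light replicate 1. By its rule that count can only stay or rise when a library is left out. The 4 sor4 light libraries had 13.3 to 74.7 CPM of the gene of 885 bases (median 56.1), against 3394 to 7505 CPM (median 6413) in the 4 sor4 dark libraries.

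The same classes were also read in the sor4 libraries, whose light and dark levels do not enter the ku80 fold changes; they share the scaling, the filter and the estimate of spread of the joint fit, and so bear on which genes were called in ku80. In sor4, 2380 of the tested genes rose (26.6%) and 2570 fell (28.8%) in light. Of the 91 genes that rose 16-fold or more in ku80, 88 rose in sor4, with a median log2 fold change of 4.59 there, beside 5.35 in ku80. Of the 356 that fell 16-fold or more, 350 fell in sor4, with a median of -5.27, beside -6.16 in ku80. The classes of 4 to 16-fold had medians of 2.29 in sor4 and 2.62 in ku80 for the 255 that rose, and of -2.66 in sor4 and -2.94 in ku80 for the 428 that fell. The ku80 medians were the larger in each of these classes, which were chosen on the ku80 values. Of the 1003 rises and 778 falls under 2-fold, 878 rose and 628 fell in sor4. Of the 3810 genes called in ku80, 0 were called in the opposite direction in sor4, and 28 had an estimate of the opposite sign.

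TrE0391W stood at 33846 to 42294 CPM in sor4 light (median 39932), against 2.80 to 189 CPM in sor4 dark (median 23.0). TrB1256C stood at 4487 to 5311 CPM in sor4 light, against 552 to 853 CPM in sor4 dark. For TrC1166C the sor4 libraries had 9.49 to 13.7 CPM in light, against 11183 to 16868 CPM in darkness. TrG0022C had 4.24 to 8.39 CPM in sor4 light, against 4184 to 7383 CPM in sor4 dark. For all 4 the sor4 light and dark libraries did not overlap. How common this is in sor4 over all tested genes was not counted. Of the 8 genes switched on in ku80, 2 met the same rule in all 8 sor4 libraries, and of the 49 switched off 30 did. A rule over 8 libraries is stricter than one over 4, and the difference of the light responses of sor4 and ku80 passed edgeR's test for 0 of 8939 genes (0%), with a smallest adjusted p of 0.0759 and 589 genes at an unadjusted p under 0.05; no other tool was run on it.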

How the data were processed

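Mycelial RNA was freed of ribosomal RNA and made into stranded libraries, per the labels' protocols. Reads were aligned with HISAT2 2.2.1, per the submitters' processing notes. The deposited table holds raw counts per gene for each library, and its name refers to featureCounts; for the genome build, the annotation and the strand setting the sources used here give nothing. Lengths in the table are multiples of 3 for 94.7% of rows, as coding lengths are.

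Counts were tested with edgeR 4.0.16 (TMM scaling, default filter by group, quasi-likelihood F test) in R 4.3.3, with the 4 groups of all 12 libraries in a joint model of 8939 genes. Benjamini-Hochberg adjusted p-values under 0.05 were called. CPM values use the scaled library sizes, and ratios of single libraries have 0.5 CPM added. Every SE was derived from the log2 fold change and the F value of the test, and was not estimated directly. Reads carry no molecular identifiers, so intervals and floors take in only counting error. Figures used matplotlib 3.10.9.

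The comparison, classes and thresholds were chosen with earlier results of these data known. By rule, the 2 genes with the largest rise and the 2 with the largest fall of mean CPM were named, among called genes without overlap between groups, plus the 3 rows to which the table gives a gene name. A list of 34 genes (photoreceptors, cellulases, SOR cluster and others) could not be matched to rows (0 found in the table). The fit was tested on simulated counts in which few genes changed, with rises and falls in equal number. That setting differs from these data, where 42.6% of the tested genes were called. Pairs of libraries within a group had a chi-square per gene of 7.06 or more, so none was counted as a repeat. Alternatives were other scalings, filters, tools (DESeq2 1.42.0, limma-voom in limma 3.58.1), only the ku80 libraries, the replicate number as a block, and each library left out.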

Additional observations from a re-analysis of the deposited data

Results flagged for a closer look

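In sor4 dark replicate 3, TrE0391W stood at 189 CPM, against 2.80 to 28.3 CPM in the other 3 sor4 dark libraries. It was picked out because that library lies far from the others of its group. The check covered 10 sets of 4 sor4 libraries, for the 5 genes whose sor4 values are given above, and marks about 1 set in 20 by chance. The level was still below every light library. Groups of 2 ku80 libraries were not checked in this way.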

How the results depend on the processing

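The direction and the call of the 10 genes whose values are given one by one were kept in each alternative that gave a value, 21 to 23 per gene; TrE0391W had no adjusted p in DESeq2. The numbers of genes that rose and fell stayed within 1.5 times the values above in 20 of 23 settings each. The exceptions use only the 4 ku80 libraries: 998 rose and 1332 fell without a block, 672 and 943 with a replicate block (libraries of equal number paired), and 935 and 1297 with the numbers crossed, a pairing chosen after seeing the data. With the block, 226 rose at least 4-fold. Fewer libraries leave fewer degrees of freedom. The scatter between libraries of a group also differed. Its chi-square per gene was 60.7 for the ku80 light pair and 29.5 for the ku80 dark pair. For sor4 pairs it was 7.06 to 15.1 in light and 21.2 to 78.8 in darkness. The fit of 12 uses 1 estimate of spread per gene for all 4 groups, and whether this changed its number of calls in ku80 was not tested. Over all 12 libraries the block gave 1558 and 1910. The block tests no stated pairing: light and dark libraries of the same number had deviations that correlated at -0.159 in ku80. The test against a 4-fold change gave 130 and 381.

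Leaving out 1 library at a time gave 1270 to 1926 rises, 1620 to 2123 falls, 290 to 406 rises and 712 to 791 falls of at least 4-fold. Scaling by library size alone gave 2086 rises and 1790 falls, so that 53.8% of the called genes rose, beside 46.5% with TMM.

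The 8 genes switched on became 15 with a limit of 5 CPM on the high side, 17 with 1 CPM on the low side and 2 with 0 counts; the 49 switched off became 76, 68 and 24. Leaving out 1 library gave 9 to 13 on (13 without dark replicate 2) and 51 to 90 off (90 without light replicate 2). The rule asks for every library, so leaving out 1 can only keep or raise these counts. With 2 libraries a side, low counts limit which genes reach either rule.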

Other observations

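The 3 rows to which the table gives a gene name, mat1-1-1, mat1-1-2 and mat1-1-3, belong to the mating type locus MAT1-1 of filamentous ascomycetes. Each had 0 counts in all 12 libraries. Whether the genome of these strains carries these 3 genes was not checked, so the counts are no measure of a response to light.

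The response was spread over all 7 letters of the identifiers. The share of tested genes that rose ran from 17.7% for letter G to 22.6% for letter C, and the share that fell from 20.7% for letter C to 24.9% for letter G. Falls of at least 4-fold ran from 6.92% of the genes of letter C to 10.6% of those of letter F, and rises of that size from 2.47% for letter G to 5.35% for letter F. Identifiers that end in W had 19.3% rises and 23.0% falls, and those that end in C 20.4% rises and 22.6% falls. These shares are given as a description, with no test of the differences between letters.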
